A study of Mus musculus with 12 samples.

Results

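The genes described here are the neutral lipid acyltransferases Dgat1, Dgat2, Mogat1, Mogat2, Soat1 and Soat2 of the mouse, 6 genes chosen by name. Of these, 4 were read by a probe set that the array annotation assigns to 1 gene, out of 19938 genes measured in that way. Soat1 and Soat2 had no such probe set in the annotation used and were not analysed here. The question put to the data was whether RNA of related acyltransferases was higher in cells deficient in both DGAT enzymes.

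The cells were mouse embryonic fibroblasts from E14 embryos of strain C57BL6, grown in DMEM with 10% FBS, and RNA was read on 12 single-colour, biotin-labelled arrays. The 4 groups had 3 samples each: differentiated D1D2KO, undifferentiated D1D2KO, differentiated wild type (WT) and undifferentiated WT cells. D1D2KO stands here for cells deficient in DGAT1 and DGAT2, whose exact alleles the sources used here do not give. Differentiated cells had received, 2 days after confluency, dexamethasone (1 µM), isobutylmethylxanthine (500 µM), insulin (5 µg/ml) and troglitazone (15 µM) for 2 to 3 days. They were then kept in insulin and troglitazone for 2 days and in plain medium thereafter. The labels do not say whether replicates came from separate embryos or cultures, so p-values measure only the spread between these samples, which may be technical.

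Triacylglycerol is finished when a DGAT enzyme adds a fatty acyl chain to diacylglycerol at the endoplasmic reticulum, and white adipocytes store most of their energy in this form. DGAT1 belongs with the SOAT enzymes, which esterify cholesterol, to the membrane-bound O-acyltransferase (MBOAT) family, whereas DGAT2 belongs to a separate family with the MOGAT enzymes. The MOGAT enzymes add an acyl chain to monoacylglycerol and so feed the DGAT step, a route best known from fat absorption in the intestine.

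All values are log2 signals or log2 differences, and a gene is said to have risen or fallen where the adjusted p was under 0.05 (limma, Benjamini-Hochberg over all 19938 genes). Of 10 adipocyte markers 9 were measured, and all 9 rose on differentiation in both genotypes. Their mean signal was 10.33 to 10.54 in differentiated D1D2KO, 5.60 to 5.61 in undifferentiated D1D2KO, 9.94 to 10.14 in differentiated WT and 5.82 to 5.88 in undifferentiated WT samples. In differentiated cells 6 of the 9 were higher in D1D2KO than in WT: Adipoq (0.41), Plin1 (0.55), Cidec (0.62), Retn (0.37), Lep (1.09) and Cebpa (0.46). Of 8 fibroblast markers 3 were lower, Col1a1 (-0.24), Thy1 (-0.74) and Pdgfra (-0.52). Over all genes 6.25% were called higher and 7.42% lower in differentiated D1D2KO than in WT cells. In single-sample omissions the call of Col1a1 was lost in 12 of 12, of Adipoq in 5, of Retn in 4, of Cidec in 3 and of Plin1 in 2, while Lep, Cebpa, Thy1 and Pdgfra lost none. In undifferentiated cells Adipoq (-0.97) and Fabp4 (-1.20) were lower and Lep (0.56) was higher in D1D2KO than in WT. The Lep call was lost in 2 of 12 omissions and those of Adipoq and Fabp4 in none. The 8 macrophage markers had a mean signal of 8.27 to 8.46 in differentiated D1D2KO and 8.36 to 8.59 in differentiated WT samples, with no difference between genotypes called. The 6 enterocyte markers, for the cell type in which MOGAT enzymes are best known, had mean signals of 3.85 to 4.28 over all samples.

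The targeted gene Dgat1 (probe set 10429926; chromosome 15 in RefSeq) was lower in D1D2KO than in WT cells at both stages, and it rose on differentiation in both genotypes. The signal in differentiated D1D2KO samples was 8.26, 8.03 and 7.75, against 9.36, 9.33 and 9.53 in differentiated WT samples. In undifferentiated D1D2KO samples it was 5.56, 5.60 and 5.66, against 6.94, 6.93 and 6.98 in undifferentiated WT samples. No group overlapped another, and the order was differentiated WT, differentiated D1D2KO, undifferentiated WT and undifferentiated D1D2KO from high to low. Over all genes, groups did not overlap for 48.1% on differentiation in D1D2KO and 43.9% in WT cells, and for 30.9% between genotypes in differentiated and 39.3% in undifferentiated cells.

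Differentiation raised Dgat1 by 2.41 in D1D2KO cells (SE 0.11; 5.31-fold; limma, adjusted p = 1.24e-11) and by 2.46 in WT cells (SE 0.11; 5.48-fold; adjusted p = 1.38e-11). The difference between these rises was -0.05 (95% confidence interval -0.36 to 0.27; limma, adjusted p = 0.964). The Dgat1 signal of D1D2KO cells was 38.2% of the WT signal after differentiation (95% interval 32.7% to 44.6%) and 39.4% before it (33.7% to 46.0%). A total of 27 of the 19938 genes had a larger fall in differentiated D1D2KO against WT cells, and 30 in undifferentiated cells. Whether the probes lie inside or outside the deleted sequence is not stated, and array signal includes background, so these shares are of signal and not of transcript.

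Dgat2 (probe set 10565775; chromosome 7), the other targeted gene, had the largest rise on differentiation among the measured members, and that rise was smaller in D1D2KO cells. The signal in differentiated D1D2KO samples was 8.37, 8.62 and 8.66, against 10.28, 9.86 and 10.53 in differentiated WT samples. Undifferentiated D1D2KO samples had 5.44, 5.50 and 5.51, against 5.94, 5.98 and 5.95 in undifferentiated WT samples. The 4 groups did not overlap, and all 6 undifferentiated samples were at or below 5.98.

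The rise of Dgat2 was 3.07 in D1D2KO cells (SE 0.13; 8.38-fold, 95% interval 6.95 to 10.1; limma, adjusted p = 5.94e-12). In WT cells it was 4.27 (SE 0.13; 19.2-fold, 15.97 to 23.2; adjusted p = 1.13e-13), and 22 genes had a larger rise there. The test of the difference between the rises gave -1.20 (SE 0.18; 95% interval -1.58 to -0.82; limma, adjusted p = 0.00271), so the fold rise in D1D2KO cells was 43.5% of that in WT cells. Dgat2 was the 1 measured member of 4 with a called difference in response. Such a call was made for 1.46% of all genes in either direction and for 0.712% in the negative direction. A more negative value was found for 4 genes. As for Dgat1, the place of the probes relative to the deleted sequence is not stated, and array signal includes background. These values are therefore of signal and not of transcript.

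Between genotypes, Dgat2 in differentiated D1D2KO cells was 31.4% of the WT signal (95% interval 26.0% to 37.8%; difference -1.67; limma, adjusted p = 3.53e-07). In undifferentiated cells it was 72.0% (59.8% to 86.8%; difference -0.47; limma, adjusted p = 0.0345). The second call was lost when any 1 of the 6 undifferentiated samples was left out, with adjusted p between 0.0530 and 0.126 and differences between -0.49 and -0.45. In bulk RNA, fewer cells of a type and less RNA per cell cannot be told apart. The 6 of 9 adipocyte markers called higher in differentiated D1D2KO samples ran opposite to Dgat1 and Dgat2 there. In undifferentiated ones the lower Adipoq and Fabp4 ran the same way, the higher Lep ran opposite, and the other 6 were not called. The part of these markers in the Dgat1 and Dgat2 differences was not tested.

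**Figure D1:**
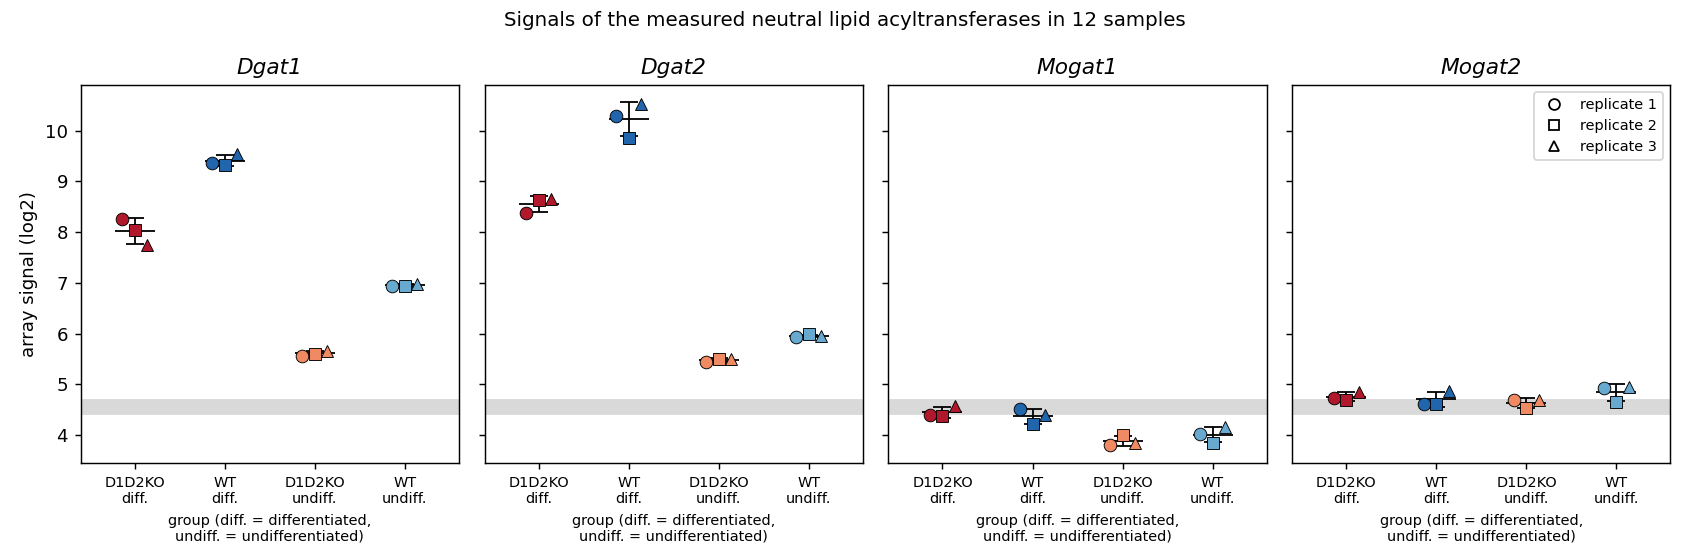
Signal of each measured gene (y axis, log2) in each sample of the 4 groups (x axis), with the group mean (wide bar) and SD (whiskers, n = 3) and the grey band spanning the lower quartiles of the 12 arrays over all genes. Dgat1 and Dgat2 are separated in all 4 groups. The Mogat1 signals lie in or below the grey band and the Mogat2 signals in or above it. Mogat1 is higher in the 6 differentiated samples than in the 6 undifferentiated ones, which all lie below the band.

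Mogat1 (probe set 10347741; chromosome 1), which makes diacylglycerol from monoacylglycerol, rose by a small amount on differentiation in both genotypes and did not differ detectably between them. Its signal was 4.40, 4.37 and 4.57 in differentiated D1D2KO samples, against 3.80, 3.99 and 3.84 in undifferentiated D1D2KO samples. In WT cells the differentiated samples had 4.50, 4.21 and 4.40, against 4.02, 3.85 and 4.15 in undifferentiated samples. Every differentiated sample was above every undifferentiated sample, while the genotypes overlapped at both stages.

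The rise of Mogat1 was 0.57 in D1D2KO cells (SE 0.10; 95% interval 0.35 to 0.78; limma, adjusted p = 0.000196), which is 1.48-fold. In WT cells it was 0.36 (SE 0.10; 0.15 to 0.58; limma, adjusted p = 0.00881), or 1.29-fold, and without WT undifferentiated replicate 2 it was 0.29 with adjusted p = 0.0581. The difference between the rises was 0.20 (-0.10 to 0.50; limma, adjusted p = 0.690). Larger rises were measured for 1435 genes in D1D2KO cells and for 1999 in WT cells.

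Between genotypes the Mogat1 difference was 0.07 in differentiated cells (95% interval -0.14 to 0.29; limma, adjusted p = 0.638), so the interval ends at 122% of the WT signal. In undifferentiated cells it was -0.13 (-0.34 to 0.08; limma, adjusted p = 0.414). Mogat1 is among the 4985 genes with the lowest mean signal, up to 4.57, and a low array signal can hide a change in RNA.

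The promoter of Mogat1 is shown because it is the measured member with an entry in the RefSeq promoter table used, and it rose in both genotypes. The 250 bases before the start of the gene lie at chr1:78510810-78511059 on the plus strand of GRCm38.p6 and are given 5′ to 3′, with matches to any of 4 motifs in capitals.
Mogat1 promoter: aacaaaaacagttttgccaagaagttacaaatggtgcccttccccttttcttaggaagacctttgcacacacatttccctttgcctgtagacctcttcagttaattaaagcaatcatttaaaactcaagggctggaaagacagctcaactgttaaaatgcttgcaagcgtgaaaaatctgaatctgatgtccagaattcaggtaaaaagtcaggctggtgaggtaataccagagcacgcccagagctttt
The motifs searched on both strands were AGGTCA (a nuclear receptor half-site), GGGCGG (a GC box), CACGTG (an E-box) and CCAAT. None of the 4 occurs in this window, so no base is in capitals. Of the 32851 windows of the same length in the table, 14.02% hold AGGTCA, 32.7% GGGCGG, 6.02% CACGTG and 33.8% CCAAT.

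Mogat2 (probe set 10565786), the intestinal monoacylglycerol acyltransferase, passed the test in none of the comparisons. It is the protein-coding gene next to Dgat2 on chromosome 7 in the RefSeq table. The signal in differentiated D1D2KO samples was 4.73, 4.68 and 4.86, against 4.62, 4.62 and 4.88 in differentiated WT samples. Undifferentiated D1D2KO samples had 4.70, 4.52 and 4.68, against 4.93, 4.65 and 4.94 in undifferentiated WT samples. The groups overlapped in every comparison of stage or genotype.

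The Mogat2 difference between stages was 0.12 in D1D2KO cells (95% interval -0.09 to 0.34; limma, adjusted p = 0.388) and -0.14 in WT cells (-0.35 to 0.08; adjusted p = 0.336). Between genotypes it was 0.05 in differentiated cells (-0.16 to 0.27; limma, adjusted p = 0.734) and -0.21 in undifferentiated cells (-0.42 to 0.01; adjusted p = 0.197). In differentiated D1D2KO cells the interval for Mogat2 therefore ends at 120.5% of the WT signal. The difference in response was 0.26 (-0.04 to 0.56; limma, adjusted p = 0.545).

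Low signals were spread differently in the 2 genotypes. The lower quartile of the genes was 4.61 to 4.68 in differentiated and 4.58 to 4.62 in undifferentiated D1D2KO arrays, against 4.45 to 4.56 in differentiated and 4.41 to 4.52 in undifferentiated WT arrays. Over the 4985 genes with the lowest mean signal, D1D2KO exceeded WT by a median of 0.11 in differentiated and 0.12 in undifferentiated cells. The Mogat1 difference in differentiated cells, 0.07, was below that median, and so was the 0.05 of Mogat2, whose mean signal of 4.73 lies just above those genes. With quantile normalization, which evens out this spread, they became -0.06 for Mogat1 and -0.08 for Mogat2, and the Mogat2 difference in undifferentiated cells became -0.35 (limma, adjusted p = 0.0418). The direction for either MOGAT gene in differentiated cells thus changed with quantile normalization, and neither was called with or without it. Array centring moved the median of all genes in that comparison by -0.003. On single-sample omission the lowest Mogat1 difference there was -0.007.

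**Figure D2:**
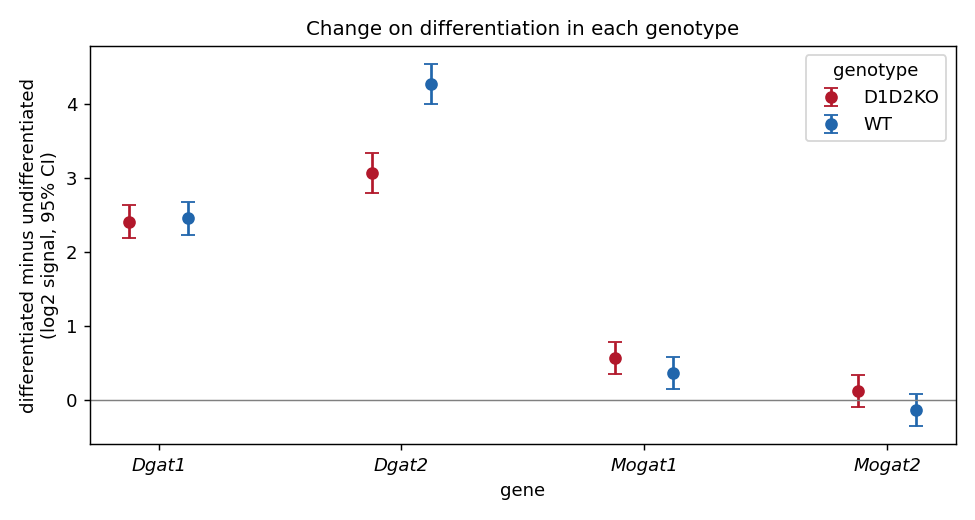
Change of each measured gene on differentiation (y axis, differentiated minus undifferentiated, log2, with 95% confidence intervals) for D1D2KO and WT cells (colours). Dgat2 is the gene whose intervals do not meet between genotypes, 3.07 in D1D2KO and 4.27 in WT cells, and Mogat2 lies at 0.12 and -0.14.

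On differentiation, 3 of the 4 measured members, Dgat1, Dgat2 and Mogat1, rose in D1D2KO cells, where 15.4% of all genes rose, and the same 3 rose in WT cells, where 14.7% of all genes rose. Between genotypes, 2 of 4 members, Dgat1 and Dgat2, fell in differentiated D1D2KO cells, where 13.7% of all genes were called, 6.25% up and 7.42% down. The same 2 fell in undifferentiated cells, where 8.02% of all genes were called, 4.40% up and 3.62% down. These 2 are the targeted genes, and no measured member was called higher in D1D2KO than in WT cells at either stage.

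The search for higher levels was extended to 17 related genes, 1 of them the inhibitor of an acyltransferase, which with Mogat1 and Mogat2 gave 19 genes other than the DGATs. In differentiated cells 0 of the 19 were called higher in D1D2KO and 1 was called lower by limma. Over all genes 6.25% were called higher and 7.42% lower, and the counts among the 19 are near these shares. At an unadjusted p under 0.05 the counts among the 19 were 2 higher and 3 lower. The median difference of the 19 was 0.04, against 0.03 over all genes. The highest upper bound of a 95% interval among the 19 was 0.46, or 37.4% above WT, for Hhatl, a relative of the hedgehog acyltransferase. In the difference in response, 0 of the 19 were called by limma, where 1.46% of all genes were called. At an unadjusted p under 0.05 the counts there were 0 positive and 2 negative among the 19.

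Of the other DGAT2 family members, the wax ester synthases Awat1 and Awat2 and the related Dgat2l6, none of the 3 was called in any of the 5 comparisons. In differentiated cells D1D2KO minus WT was 0.10 for Awat1, 0.20 for Awat2 and 0.22 for Dgat2l6. In undifferentiated cells Dgat2l6 had a difference of 0.29 (95% interval 0.07 to 0.51; limma, adjusted p = 0.0855). The mean signal of the 3 genes was 3.92 to 4.16 in differentiated D1D2KO and 3.81 to 3.97 in differentiated WT samples. Across 20 alternative settings, quantile normalization among them, the difference in differentiated cells was -0.03 to 0.20 for Awat1. It was 0.07 to 0.34 for Awat2 and 0.09 to 0.27 for Dgat2l6. The part that the spread of low signals has in these differences was not tested further.

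Among 8 other MBOAT genes, the lysophospholipid acyltransferase Mboat2 was lower in D1D2KO than in WT cells at both stages. Its mean was 5.85 ± 0.04 in differentiated D1D2KO and 6.27 ± 0.04 in differentiated WT cells (SD, n = 3 each), a difference of -0.42 (limma, adjusted p = 0.00169). In undifferentiated cells the difference was -0.35 for Mboat2 (limma, adjusted p = 0.0113) and -0.38 for Mboat1, a lysophospholipid acyltransferase of the same kind (adjusted p = 0.0107). Both undifferentiated calls were lost without WT undifferentiated replicate 2 (adjusted p = 0.0782 for Mboat2 and 0.0719 for Mboat1). They were also lost without D1D2KO undifferentiated replicate 3 (0.0690 for Mboat2 and 0.0543 for Mboat1).

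Mboat4, the ghrelin acyltransferase, alone of the 19 was called higher in D1D2KO, in undifferentiated cells, where 4.40% of all genes were. Its mean there was 5.57 ± 0.05 in D1D2KO and 5.17 ± 0.20 in WT samples (SD, n = 3 each), a difference of 0.40 (95% interval 0.20 to 0.61; limma, adjusted p = 0.0213). Quantile normalization gave 0.28 with adjusted p = 0.0746. The call was also lost without WT undifferentiated replicate 1 (adjusted p = 0.0860) or replicate 2 (0.123), and without D1D2KO undifferentiated replicate 1 (0.0772) or replicate 3 (0.0694). In differentiated cells the Mboat4 difference was 0.21 (limma, adjusted p = 0.149).

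Several of the 8 MBOAT genes changed with stage, Mboat1 and Mboat2 among them. On differentiation 1 rose and 3 fell in D1D2KO cells, and 2 rose and 3 fell in WT cells. Calls in either direction were made for 36.7% of all genes in D1D2KO and 34.1% in WT cells. Lpcat3, which acylates lysophosphatidylcholine, rose by 1.57 in D1D2KO and by 1.64 in WT cells. Mboat2 fell by 1.21 in D1D2KO and by 1.14 in WT cells, and Mboat1 fell by 0.75 in D1D2KO and by 0.96 in WT cells. Hhat, which palmitoylates hedgehog proteins, fell by 0.47 in D1D2KO and by 0.55 in WT cells. Porcn, which acylates Wnt proteins, rose by 0.53 in WT cells and had a difference of 0.18 in D1D2KO cells (limma, adjusted p = 0.0916), and the difference between these responses, -0.35, was not called (adjusted p = 0.164).

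The last of these sets held 6 genes, 5 linked to other acyl transfer to or from neutral lipids and 1 that inhibits such an enzyme. Tmem68, an acyltransferase known to make triacylglycerol without DGAT enzymes, had means of 6.83 ± 0.10 in differentiated D1D2KO and 6.79 ± 0.21 in differentiated WT cells (SD, n = 3 each). Its difference there was 0.04 (95% interval -0.18 to 0.26; limma, adjusted p = 0.815), and for Tmx1, known as its inhibitor, it was -0.14 (adjusted p = 0.339). On differentiation Tmem68 had -0.05 in D1D2KO cells (limma, adjusted p = 0.741) and fell by 0.30 in WT cells (adjusted p = 0.0300). The WT call was lost in 3 of 12 single-sample omissions (limma, adjusted p 0.120 to 0.140) and with only the groups compared (0.0610). The difference between these responses, 0.25 (95% interval -0.06 to 0.55), was not called (limma, adjusted p = 0.585). Between differentiated genotypes Lcat, which esterifies plasma cholesterol, had 0.06 and Lrat, which esterifies retinol, had 0.08. The lysosomal transacylase Pla2g15 had -0.14 there, and none of these differences was called.

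Pnpla3, a lipid droplet protein for which both hydrolase and acyltransferase activity have been described, rose by 3.28 in D1D2KO and by 3.74 in WT cells. In differentiated cells its mean was 8.79 ± 0.19 in D1D2KO and 9.12 ± 0.13 in WT (SD, n = 3 each), a difference of -0.34 (limma, adjusted p = 0.0547). The difference in response of -0.46 was not called (limma, adjusted p = 0.213).

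**Figure D3:**
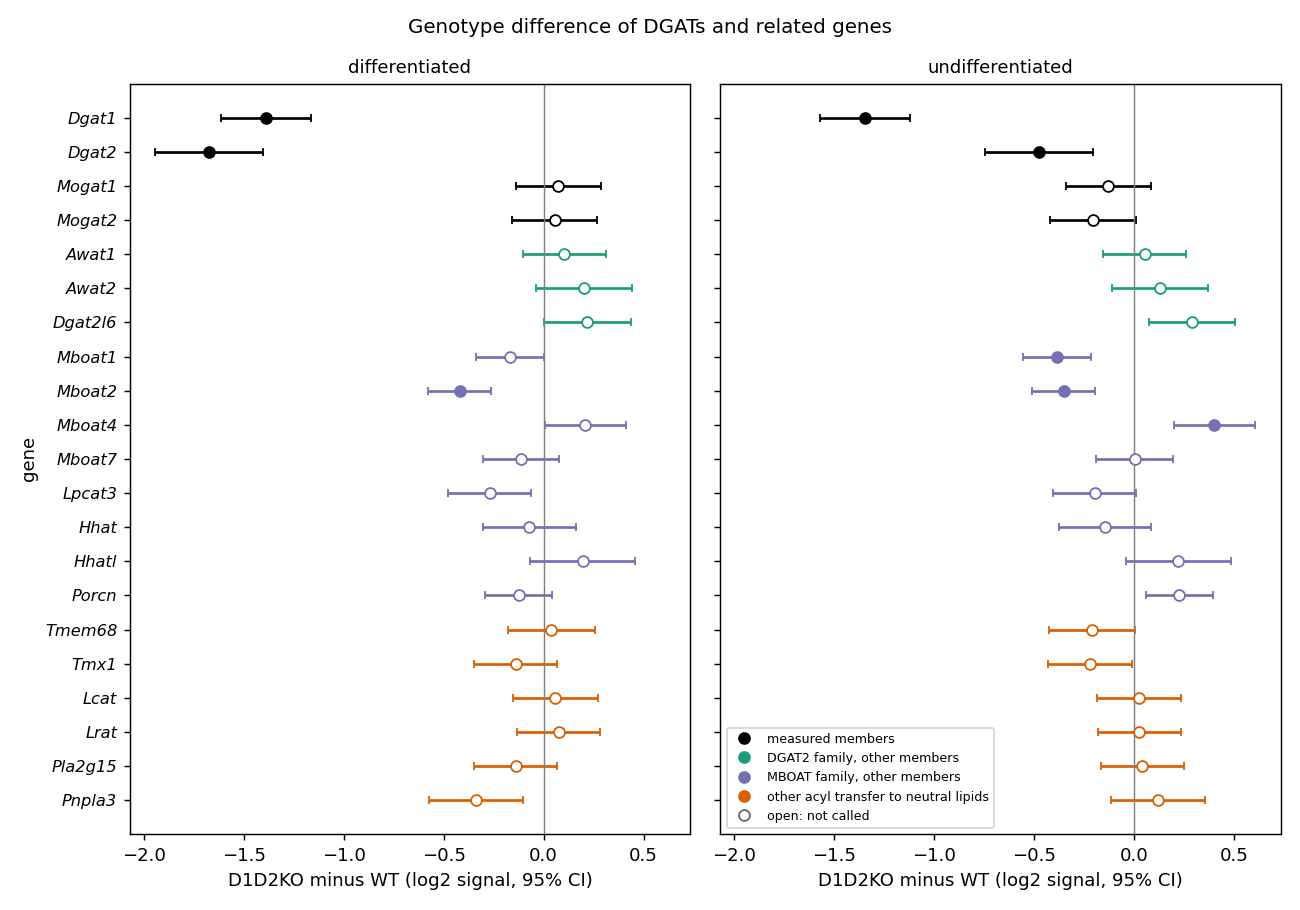
Difference between genotypes (x axis, D1D2KO minus WT, log2, with 95% confidence intervals) for the 4 measured members and 17 related genes (y axis) in differentiated and undifferentiated cells (panels), with filled points where the adjusted p was under 0.05. Dgat1 and Dgat2 lie left of the other genes in differentiated cells, and the filled point right of 0 is Mboat4 in undifferentiated cells, at 0.40.

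Substrates and competing fates of the DGAT step were described with 4 further lists. Of 17 genes for glycerolipid synthesis up to diacylglycerol 16 were measured, and 8 rose and 3 fell on differentiation in each genotype. Over all genes, 21.2% fell in D1D2KO and 19.4% in WT cells, beside the shares that rose given above, and the counts of the lists that follow stand against the same shares. The largest changes were in Gpd1, which makes glycerol 3-phosphate (6.22 in D1D2KO and 5.71 in WT cells), and Agpat2, which makes phosphatidic acid (4.65 in D1D2KO and 4.28 in WT cells). In differentiated cells 2 of the 16 were higher in D1D2KO than in WT and 1 was lower, against 6.25% and 7.42% of all genes. The median difference was 0.09 over the list and 0.03 over all genes. Gpat3, which acylates glycerol 3-phosphate, had 9.22 ± 0.21 in D1D2KO and 8.15 ± 0.29 in WT cells (SD, n = 3 each), a difference of 1.07 (SE 0.14; limma, adjusted p = 0.00015). Plpp1, a lipid phosphate phosphatase, differed by -0.70 (SE 0.10; limma, adjusted p = 0.000221). Gpat3 was also the 1 gene of this list with a called difference in response, 1.52 (limma, adjusted p = 0.00103), opposite in sign to that of Dgat2.

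Enzymes that use diacylglycerol for phospholipids or phosphatidic acid were measured for 11 of 13 genes. Between genotypes 0 of the 11 were called by limma at either stage. The shares over all genes were 13.7% in differentiated and 8.02% in undifferentiated cells. On differentiation 2 rose and 4 fell in D1D2KO cells, and 2 rose and 2 fell in WT cells. Chpt1, a choline phosphotransferase, rose by 3.36 in D1D2KO and 2.87 in WT cells. The diacylglycerol kinase Dgkh fell by 0.69 in D1D2KO and by 0.71 in WT cells.

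The 7 genes that release or break down monoacylglycerol and diacylglycerol were all measured, and 5 rose and 1 fell on differentiation in each genotype. The hormone-sensitive lipase gene Lipe rose by 4.20 in D1D2KO and 3.97 in WT cells, and the triacylglycerol lipase gene Pnpla2 by 4.16 in D1D2KO and 3.78 in WT cells. Mgll, which breaks down the substrate of the MOGAT enzymes, was lower in undifferentiated D1D2KO than WT cells, with a difference of -0.66 (limma, adjusted p = 0.00108). Its rise was 2.39 in D1D2KO and 1.51 in WT cells, a difference in response of 0.88 (limma, adjusted p = 0.00559), and 0.747% of all genes had a called positive difference. In differentiated cells Pnpla2 was 0.30 higher in D1D2KO (limma, adjusted p = 0.0249), and Abhd5, its activator, 0.34 higher (adjusted p = 0.0492). The Pnpla2 call was lost without WT differentiated replicate 2 (limma, adjusted p = 0.0707) or D1D2KO differentiated replicate 1 (0.0815), or in a fit to only the groups compared (0.0739). The Abhd5 call was lost in 10 of 12 single-sample omissions (limma, adjusted p between 0.0531 and 0.196). It was kept in 7 of all 21 alternative settings.

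For the cholesterol pools that SOAT enzymes would draw on, 8 of 9 genes for uptake, efflux and ester hydrolysis were measured. On differentiation 3 rose and 4 fell in D1D2KO cells, and 4 rose and 3 fell in WT cells. Scarb1, the high-density lipoprotein receptor, rose by 2.60 in D1D2KO and 2.27 in WT cells. Abcg1, a sterol exporter, rose by 1.28 in D1D2KO and 1.85 in WT cells, and the ester hydrolase Nceh1 fell by 1.28 in D1D2KO and by 1.02 in WT cells. In differentiated cells Abcg1 alone of the 8 was called between genotypes, with D1D2KO minus WT at -0.45 (limma, adjusted p = 0.00417). Its difference in response, -0.57 (limma, adjusted p = 0.0356), was lost in 10 of 12 single-sample omissions, with adjusted p between 0.0523 and 0.109.

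The genes most like Dgat1 and Dgat2 were ranked by the root mean square difference of centred signals over the 12 samples, in log2 units. For Dgat1 they were Ndufa4l2 (0.389), a mitochondrial complex subunit paralog, the monoamine oxidase gene Maob (0.546) and the neuritin gene Nrn1 (0.566). For Dgat2 they were the stearoyl-CoA desaturase gene Scd1 (0.444), Pnpla3 (0.556) and the acetyl-CoA synthetase gene Acss2 (0.574). Mogat1 and Mogat2, whose group means spanned 0.57 and 0.21, varied too little for such a ranking.

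All 6 rose on differentiation in both genotypes, and their genotype differences varied. They were chosen for likeness over these same 12 samples, so neither trait is independent of the choice. In differentiated cells D1D2KO minus WT was -0.54 for Scd1 (limma, adjusted p = 0.00113), against the -1.67 of Dgat2, and neither Pnpla3 nor Acss2 was called. Scd1 had a difference in response of 0.12 (limma, adjusted p = 0.828). In undifferentiated cells D1D2KO minus WT was -1.67 for Ndufa4l2 (limma, adjusted p = 6.44e-06) and -1.34 for Dgat1, but Ndufa4l2 had a positive difference in response of 1.18 (adjusted p = 0.0125). Scd1 (-0.66), Nrn1 (-0.63) and Maob (-0.43) were also called lower in undifferentiated cells, and Pnpla3 and Acss2 were not called. The Nrn1 call was lost in 3 of 12 single-sample omissions and that of Maob in 4. In differentiated cells Ndufa4l2 had -0.49 (limma, adjusted p = 0.0476), a call lost in 8 of 12 omissions, and Maob and Nrn1 were not called.

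**Figure D4:**
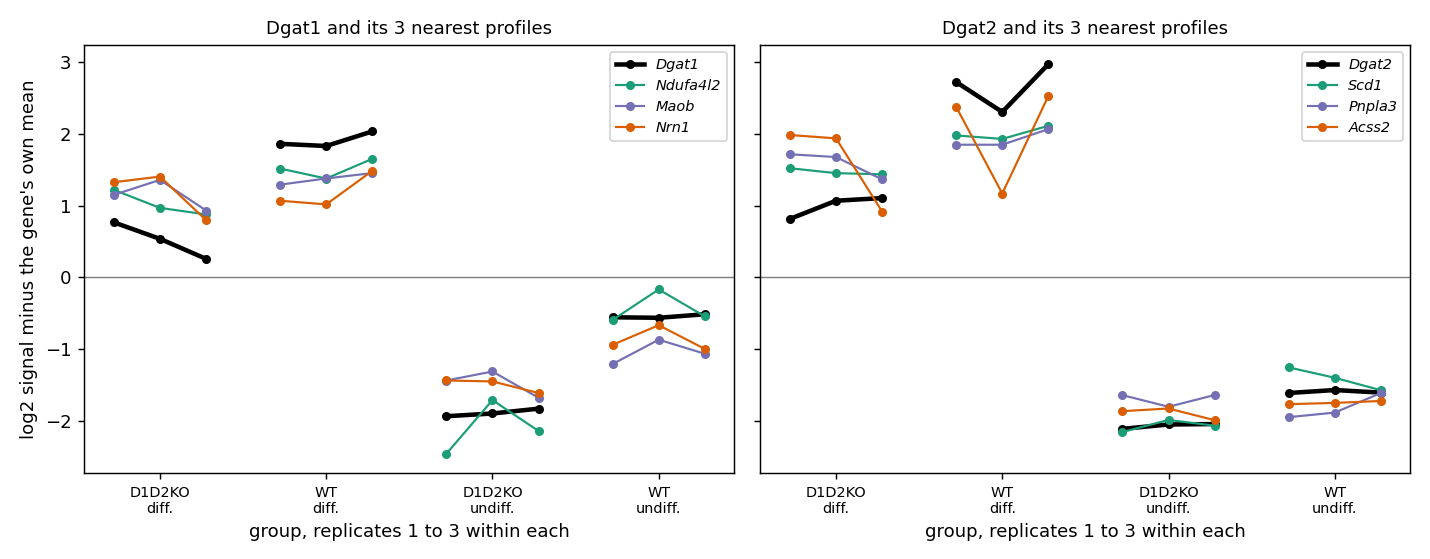
Signal of Dgat1 and Dgat2 (black) and of the 3 genes nearest to each (colours) after subtraction of each gene's own mean (y axis, log2), in the 12 samples ordered by group (x axis), with lines that join replicates for the eye only. The genes rise together in differentiated cells, and Dgat2 lies below its neighbours in most differentiated D1D2KO samples and above them in differentiated WT samples.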

How the data were processed

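RNA of 12 samples was read on single-colour arrays. The deposited table holds the authors' log2 values for 35556 probe sets, from 1.15 to 14.17, with column medians of 5.61 to 5.69. The base is inferred from the values, which exceed 11.09, the natural log of the largest 16-bit intensity. The summarisation and normalization were not given in the sources used here. Precision is limited by the number of arrays.

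Of the probe sets, 21789 had 1 gene in the platform annotation, 1621 several and 12146 none. The probe set with the highest mean stood for each of 19938 genes. Groups were compared with limma 3.58.1 in R 4.3.3, with 4 group means in 1 fit over all 12 samples, Benjamini-Hochberg adjustment over all genes and a threshold of 0.05. The fit was tested on simulated data. Alternatives were array centring, quantile normalization, a signal filter, other probe set rules, only the groups compared, trended and robust moderation, array weights, a replicate block and single-sample omissions.

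Same-numbered samples of differentiated and undifferentiated D1D2KO cells had weakly correlated deviations from their group means (0.101 to 0.176). In WT differentiation these correlations were -0.0125 to 0.129, between undifferentiated genotypes -0.0146 to 0.184 and between differentiated genotypes -0.233 to 0.117. Differently numbered samples had -0.147 to 0.0522 in D1D2KO differentiation and up to 0.220 between differentiated genotypes.

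The members and lists were chosen with earlier results of these data known. Named were the members, all genes of the 3 acyltransferase lists, the 2 called genes with the largest difference per pathway list and comparison, markers called between genotypes, and 3 nearest profiles. Markers of the other cell types called between genotypes, as D1D2KO minus WT, were in differentiated cells Alb (-0.76) and Ttr (0.32) of hepatocytes, Tubb3 (-0.36) and Nes (-0.54) of neural cells, Tek (0.33) of endothelium, and Actn2 (0.42), Ckm (0.29) and Acta1 (-0.37) of skeletal muscle. In undifferentiated cells they were Cdx2 (0.37) of enterocytes, Tek (0.58) and Emcn (-0.47) of endothelium and Myog (0.43) of skeletal muscle. In differentiated cells 4 of 6 hepatocyte, 3 of 5 neural, 4 of 5 endothelial and 3 of 6 skeletal muscle markers measured were not called. In undifferentiated cells 5 of 6 enterocyte, 3 of 5 endothelial and 5 of 6 skeletal muscle markers measured were not called. Some uncalled neural and endothelial markers differed in the opposite direction from the called ones of their list in differentiated cells. Many of the calls named were lost on single-sample omission. In differentiated cells Ttr lost its call in 11 of 12 omissions, Tek in 9, Ckm in 6, Tubb3 in 4 and Acta1 in 1, while Alb, Nes and Actn2 lost none. In undifferentiated cells Myog lost its call in 6 of 12, Cdx2 in 4 and Emcn in 4, while Tek lost none. Promoter sequence is from RefSeq (GRCm38.p6). Protein sequences were not used here.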

Additional observations from a re-analysis of the deposited data

Results flagged for a closer look

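The response of Dgat2 to differentiation differed between genotypes by -1.20 (D1D2KO minus WT, log2; SE 0.18; limma, adjusted p = 0.00271), with rises of 3.07 in D1D2KO and 4.27 in WT cells. It was singled out because the test of the difference itself passed the threshold. Across 20 settings the value lay between -1.38 and -1.02, with limma adjusted p between 0.000184 and 0.0116. Dgat2 is itself a targeted gene. Where its probes lie relative to the deleted sequence is not stated, and array signal includes background. The difference is therefore one of signal and not of transcript, and its cause was not tested.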

How the results depend on the processing

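Of 406 recomputed values of the 4 measured members, 398 kept their side of the threshold. Of the others 7 lost a call and 1 gained one, and 0 of the 406 turned a called direction. Some differences that were not called changed sign, among them those of Mogat1 and Mogat2 between differentiated genotypes. The lost calls were Dgat2 between undifferentiated genotypes without any of the 6 undifferentiated samples (omissions gave -0.49 to -0.45) and Mogat1 in WT differentiation without WT undifferentiated replicate 2 (omissions gave 0.29 to 0.45). Mogat2 between undifferentiated genotypes gained a call with quantile normalization (-0.35, adjusted p = 0.0418). Between 1 and 2 members were called in undifferentiated cells on single-sample omission. A replicate block changed no member's call (Dgat2, undifferentiated, -0.47, limma, adjusted p = 0.0302). The labels do not say whether same-numbered samples were paired. Genes called between undifferentiated genotypes numbered 1600, against 834 with quantile normalization, 881 above the median signal, 2597 with only the groups compared, 4224 with array weights and 339 to 1967 on omission. Of these calls 54.9% were higher in D1D2KO as deposited and 38.4% with quantile normalization. Between differentiated genotypes 2726 were called, against 1184 with only the groups compared and 1344 to 2822 on omission. For the difference in response 291 were called, against 537 above the median signal, 450 with trended and robust moderation, 604 with array weights and 159 to 449 on omission. The causes were not tested. Mogat1 and Mogat2 have no value above the median signal, Soat1 and Soat2 none at all, and the fit to only the groups compared gives no difference in response. Signal near or below the arrays' lower quartile limits what can be said of both MOGAT genes.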
